A study of Mus musculus with 8 samples.

Results

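The loss of Gpr176 was examined in the suprachiasmatic nucleus (SCN), the paired cell group above the optic chiasm that holds the master circadian clock, at circadian time 6 (CT6), in the subjective day. The comparison set 2 arrays from Gpr176-/- mice against 2 arrays from wild-type mice, which are 4 of the 8 arrays of the series. The other 4 arrays came from the same genotypes at CT18, in the subjective night. For each array, SCN tissue cut out by laser microdissection from 10 mice had been pooled, so that 40 mice stand behind the CT6 comparison. The 2 pools of a group, here called A and B, were biological replicates per the series' design text. All mice, knockout and wild type, were C57BL/6J, had lived on 12 h of light and 12 h of dark for more than 2 weeks, and had then been moved to constant darkness. The labels give the Gpr176 genotype as the only difference between the groups, and name neither the part of the gene that was deleted nor the age or sex of the animals. The members of the comparison were all 19938 genes with a probe set of their own on the array, and 12452 of them passed a filter on low levels and were tested.

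Gpr176 encodes a receptor of the G protein-coupled class for which no ligand is established. It is abundant in SCN neurons and is known to lower cyclic AMP through the G protein Gz without an added ligand. Cyclic AMP acts on the clock through protein kinase A and through the transcription factor CREB, which binds the cyclic AMP response element (CRE). During the subjective day SCN neurons fire fast, the transcripts of the period genes are high, and the peptides of the nucleus, among them vasopressin, vasoactive intestinal peptide, neuromedin S and prokineticin 2, carry its timing to other cells.

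The targeted gene itself fell, and was the only gene of 12452 called at CT6 (limma, Benjamini-Hochberg adjusted p under 0.05), which is 0.00803% of the genes tested. The log2 level of Gpr176 was 9.37 and 9.31 in the wild-type arrays and 8.08 and 8.02 in the knockout arrays. Both knockout arrays were thus below both wild-type arrays, and the arrays of a genotype lay close together. The difference, knockout minus wild type, was -1.30 ± 0.0694 on the log2 scale (SE of the fit, n = 2 arrays per group; 95% confidence interval -1.45 to -1.14; limma adjusted p = 9.28e-05), a level of 0.408 times that of wild type. The CT18 arrays, which the CT6 difference does not use, gave -1.31. Some signal therefore remained at the Gpr176 probe set in the knockout, and the labels do not place this probe set relative to the deleted part.

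No gene was called higher at CT6. At an unadjusted limma p under 0.05, 528 genes were counted (4.24%), 296 higher (2.38%) and 232 lower (1.86%) in the knockout. The adjusted p-values jumped from Gpr176 to 0.217 for Nmu, 0.536 for Mid1 and Eif2ak4, and 0.975 from the fifth gene on. In 4087 genes (32.8%) the groups did not overlap, that is, both knockout arrays lay above or both below the wild-type arrays. With 2 arrays against 2, an exact permutation test of a single gene cannot go below a two-sided p of 0.333.

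**Figure D1:**
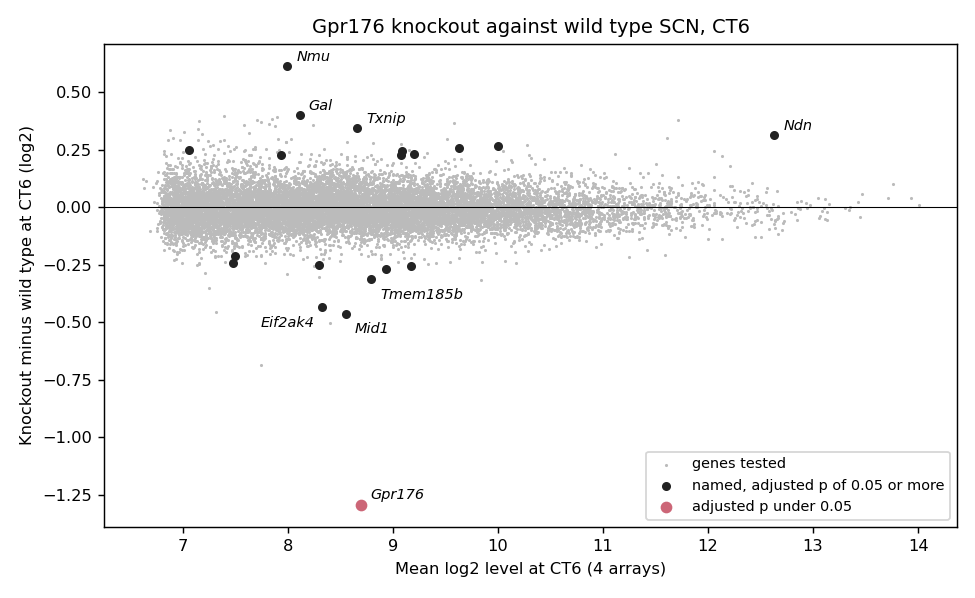
Difference between the Gpr176 knockout and wild type at CT6 (log2, y axis) against the mean log2 level over the 4 CT6 arrays (x axis), 1 grey point per gene tested; the 20 genes with the smallest p after small RNA genes and provisional symbols were left out are drawn larger. Gpr176 at -1.30 stands alone at the bottom, Nmu at 0.61 is the highest point, and 99% of the genes lie within 0.223 of 0.

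The size of the differences was small throughout. The median difference over the 12452 genes was -0.00604, the median size 0.0471, and 99% of genes differed by less than 0.223 on the log2 scale. The median distance between the 2 arrays of a genotype was 0.0655 in wild type and 0.065 in the knockout. For 12389 genes (99.5%) the 95% confidence interval lay wholly within a 1.5-fold change either way, and for 11628 genes (93.4%) within 1.25-fold. The measured difference reached 1.5-fold in 3 genes, Gpr176, Nmu and Mir377, a microRNA gene named here only after its value was seen. Mir377 stood at 8.44 and 7.74 in wild type and 7.38 and 7.43 in the knockout, a difference of -0.69 ± 0.200 that did not pass (limma adjusted p = 0.975). Another 23 genes differed by 1.25- to 1.5-fold, 18 higher and 5 lower. Among the 18 were markers of the membranes over the brain with overlapping groups, which are given below. Aldh1a2 was at 7.29 and 7.76 in wild type and 8.15 and 7.65 in the knockout, and Islr at 7.88 and 8.25 against 8.72 and 8.13.

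Next to Gpr176 in the ranking stood Nmu, which encodes neuromedin U, a peptide of the SCN and other hypothalamic nuclei related to neuromedin S. It stood at 7.78 and 7.59 on the log2 scale in wild type against 8.36 and 8.25 in the knockout. The groups thus did not overlap, as in 32.8% of all genes tested. The difference of 0.61 ± 0.0849 (95% confidence interval 0.42 to 0.80), 1.53-fold, did not pass in the quantile-normalised values (unadjusted p = 3.48e-05, limma adjusted p = 0.217). It did pass in the values as deposited (adjusted p = 0.0454) and in values centred on the median of each array (adjusted p = 0.0285). In the CT18 arrays the Nmu difference was 0.29 (unadjusted p = 0.00692), and the 2 differences differed by 0.32 (unadjusted p = 0.0231, adjusted p = 0.944). Wild type at CT18 stood at 6.73 and 6.66, under the log2 6.82 of the filter on low levels, and the knockout at 7.08 and 6.885. The choice of Nmu by its p at CT6 also favours a smaller value at CT18.

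The promoter sequences of Gpr176, of its neighbour Eif2ak4 and of Nmu are shown for the elements through which cyclic AMP and the clock act on transcription. They are the 250 bases before the annotated start, 5′ to 3′ in the direction of transcription, from RefSeq on mouse assembly GRCm38.p6. Capitals mark the short CRE TGACG and the E-box CACGTG, which clock proteins bind. Both strands were searched for these letters and for the full CRE, TGACGTCA, which itself holds the short one.
Gpr176, chr2:118373420-118373669, minus strand: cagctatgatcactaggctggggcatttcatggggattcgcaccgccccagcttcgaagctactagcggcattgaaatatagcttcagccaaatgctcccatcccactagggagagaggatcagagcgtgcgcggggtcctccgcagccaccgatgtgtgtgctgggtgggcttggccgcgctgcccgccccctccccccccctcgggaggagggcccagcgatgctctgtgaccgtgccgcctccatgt
Eif2ak4 first start, chr2:118388367-118388616, plus strand: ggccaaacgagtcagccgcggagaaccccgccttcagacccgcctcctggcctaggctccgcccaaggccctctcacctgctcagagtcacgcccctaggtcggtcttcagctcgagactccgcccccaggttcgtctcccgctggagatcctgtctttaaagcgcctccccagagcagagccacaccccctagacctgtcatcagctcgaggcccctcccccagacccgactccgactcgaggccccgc
Eif2ak4 second start, chr2:118388862-118389111, plus strand: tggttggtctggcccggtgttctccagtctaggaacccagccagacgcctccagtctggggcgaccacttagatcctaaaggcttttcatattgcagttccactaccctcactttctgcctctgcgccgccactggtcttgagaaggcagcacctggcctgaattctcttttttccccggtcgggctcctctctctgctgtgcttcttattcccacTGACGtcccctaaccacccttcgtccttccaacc
Nmu, chr5:76363778-76364027, minus strand: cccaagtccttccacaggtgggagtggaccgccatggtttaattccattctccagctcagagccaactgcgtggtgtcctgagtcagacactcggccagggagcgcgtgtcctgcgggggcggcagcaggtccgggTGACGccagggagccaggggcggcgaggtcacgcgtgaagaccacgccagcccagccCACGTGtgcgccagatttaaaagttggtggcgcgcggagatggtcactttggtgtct

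In the Nmu promoter the short CRE began 114 bases and the E-box 57 bases before the start. The second start of Eif2ak4 had a short CRE 34 bases before it, while neither the Gpr176 promoter nor the first Eif2ak4 promoter held any of the 3 motifs in this window. Those of Gal and Nms held none either. Of 32851 mouse promoters of the same length, 17.8% hold the short CRE, 6.02% the E-box and 1.55% the full CRE, so that a match is common for the short CRE. Counted per gene over all its starts, 29.8% of 9957 tested genes with a promoter in the RefSeq table held the short CRE and 9.74% the E-box. Of these 9957 genes, 303 carried the full CRE. Their median difference at CT6 was 0.0065, against -0.00547 for the others, and 15 were higher and 8 lower at an unadjusted p under 0.05 (7.59% against 4.04% of the others). For the shorter motifs this share was lower with the motif than without, 3.91% against 4.25% for the short CRE and 3.81% against 4.18% for the E-box. None of the genes with a motif was called. These matches describe letters only.

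Mid1 and Eif2ak4 followed, both lower in the knockout and neither past the threshold. Mid1, on the X chromosome, encodes a ubiquitin ligase that binds microtubules. It stood at 8.76 and 8.81 in wild type and 8.35 and 8.30 in the knockout, a difference of -0.46 ± 0.0780 (limma adjusted p = 0.536), and at -0.36 in the CT18 arrays. Eif2ak4 encodes GCN2, the kinase that senses uncharged transfer RNA and phosphorylates the initiation factor eIF2. Its levels were 8.56 and 8.53 in wild type against 8.03 and 8.20 in the knockout, a difference of -0.43 ± 0.0730 (adjusted p = 0.536). At CT18 the Eif2ak4 difference was -0.54 (unadjusted p = 3.11e-05, adjusted p = 0.154). For both genes, ranked here by p, the groups did not overlap at CT6, as in 32.8% of all genes tested.

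Eif2ak4 is also a neighbour of Gpr176 on chromosome 2. It is the second annotated gene to one side of Gpr176, is read from the opposite strand, and its first start lies 15.2 kb from that of Gpr176, as the coordinates of the promoters above show. Among the 6 tested genes within 10 annotated genes of Gpr176, Fsip1, the adjoining gene on the other side, was the other with an unadjusted p under 0.05. Fsip1 stood at 7.17 and 7.20 in wild type and 7.29 and 7.49 in the knockout, a difference of 0.21 (unadjusted p = 0.0285), opposite in sign to Gpr176 and Eif2ak4. Thbs1, the matrix protein thrombospondin 1, lay between with -0.11 ± 0.144, and Srp14, a part of the signal recognition particle, with -0.02 ± 0.0674. In the wider window of 25 annotated genes on each side 16 genes were tested, none was called, and their median was -0.0197. Of 980 genes on the rest of chromosome 2, 2.86% had an unadjusted p under 0.05.

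**Figure D2:**
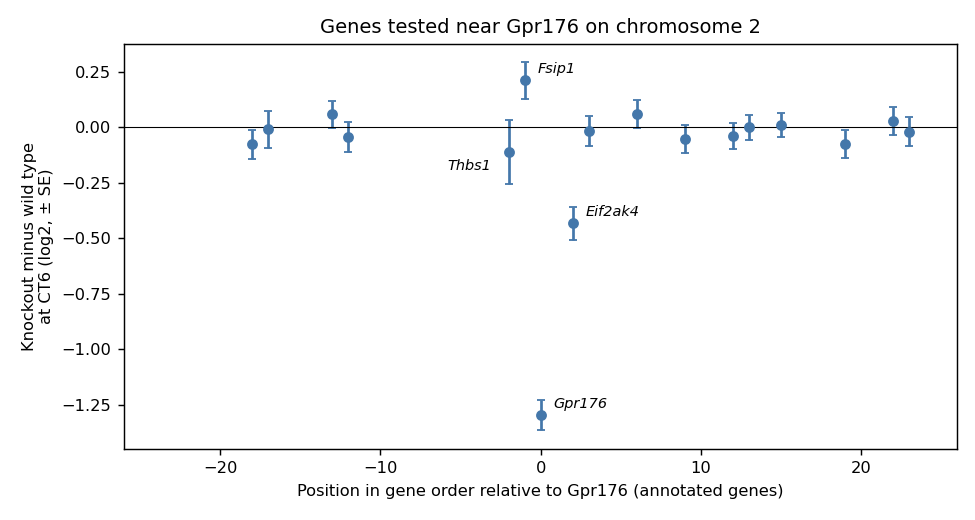
Difference between knockout and wild type at CT6 (log2, y axis, with the SE of the fit) for the genes tested within 25 annotated genes of Gpr176 on chromosome 2, by position in the gene order (x axis). Gpr176 at -1.30 and Eif2ak4 at -0.43 lie below 0, Fsip1 at 0.21 above it, and the rest between -0.11 and 0.06.

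The next 16 genes by p among those with a gene name, leaving out small RNA genes and provisional symbols, all had an adjusted p of 0.975 and are given by their values. Ndn, the growth-restraining protein necdin, stood at 12.57 and 12.38 in wild type and 12.76 and 12.81 in the knockout, a difference of 0.31 ± 0.0675, and at 0.33 in the CT18 arrays. Tmem185b, a membrane protein, was at 8.94 and 8.96 against 8.59 and 8.69, a difference of -0.31 ± 0.0669, and at -0.48 at CT18. Zfp57, a zinc finger protein that protects methylation at imprinted genes, was at 9.05 and 9.08 against 8.74 and 8.86, a difference of -0.27 ± 0.0578, and at -0.22 at CT18. In these 3 genes the CT18 pools thus gave a difference of the same sign and of like size.

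Other genes of this group had a smaller value at CT18. Txnip, an inhibitor of thioredoxin that follows glucose supply, stood at 8.43 and 8.55 in wild type and 8.94 and 8.72 in the knockout, a difference of 0.34 ± 0.0860, and at 0.04 at CT18. Podn, a matrix proteoglycan, differed by 0.25 at CT6 and 0.03 at CT18. Smarca5, the motor of ISWI chromatin remodelling complexes, differed by -0.25 and 0.03 at the 2 times. Polr3e, a subunit of RNA polymerase III, differed by -0.25 and 0.01, and its other probe set gave 0.0829 at CT6, of the opposite sign. Polr1c, shared by RNA polymerases I and III, differed by 0.26 and 0.17. The unadjusted limma p for a difference between the times was 0.00543 for Polr3e and 0.00963 for Smarca5, but no gene passed after adjustment. These genes were chosen by their p at CT6, and the difference between the times contains the CT6 difference. The choice itself thus favours a smaller value at CT18 and a small p here.

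Apart from Gal, given with the peptides, the remaining genes of the group differed by 0.21 to 0.27 in size. Fbxo36, a substrate receptor of a ubiquitin ligase, was 0.27 higher, Cebpzos 0.24, Fbln5, the elastic fibre protein fibulin 5, 0.23, Ndufb2, a subunit of respiratory complex I, 0.23, and Sbds, a ribosome maturation factor, 0.23. Prdm16, a zinc finger regulator of transcription, differed by -0.24 and Efna2, the signalling protein ephrin A2, by -0.21. In each of these genes both knockout arrays lay to the same side of both wild-type arrays. This held in 32.8% of all genes tested, and the choice by p at CT6 favours it. Fbln5 at 0.21 and Efna2 at -0.17 kept their sign and most of their size at CT18, where Ndufb2 was at -0.05. For Ndufb2, likewise chosen by its p at CT6, the unadjusted limma p for a difference between the times was 0.00396.

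Set beside the CT18 pools as a whole, 16 of the 19 named genes that follow Gpr176 by p (small RNA genes and provisional symbols left out) had a difference of the same sign at CT18, and 9 of these an unadjusted p under 0.05 there. None of the 19 was called at CT18. The fit gives each gene the same standard error at both times. A choice by p at CT6 therefore also favours a small p at CT18, and the 9 are not independent support. Over all genes tested 58.7% had the same sign at both times, and over the 528 genes with an unadjusted p under 0.05 at CT6 72.9%. The differences at the 2 times come from separate arrays and correlated at r = 0.245 over the 12452 genes, which are not independent replicates. The median size of the difference was 0.0669 at CT18 against 0.0471 at CT6, and 1558 genes (12.5%) had an unadjusted p under 0.05 at CT18. In limma 1 gene was called at CT18, Gpr176 again. For the difference between the CT6 and CT18 effects no gene was called (605 at an unadjusted p under 0.05, 4.86%; smallest adjusted p = 0.944). Averaged over both times, a contrast added after the data were seen, 3 genes were called (0.0241%), all lower. They were Gpr176, Eif2ak4 (adjusted p = 0.0240) and Tmem185b (adjusted p = 0.0425). Leaving out single arrays gave between 1 and 4 called genes. Only Gpr176 remained without either wild-type CT6 array, knockout CT6 A, wild-type CT18 B or knockout CT18 A.

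**Figure D3:**
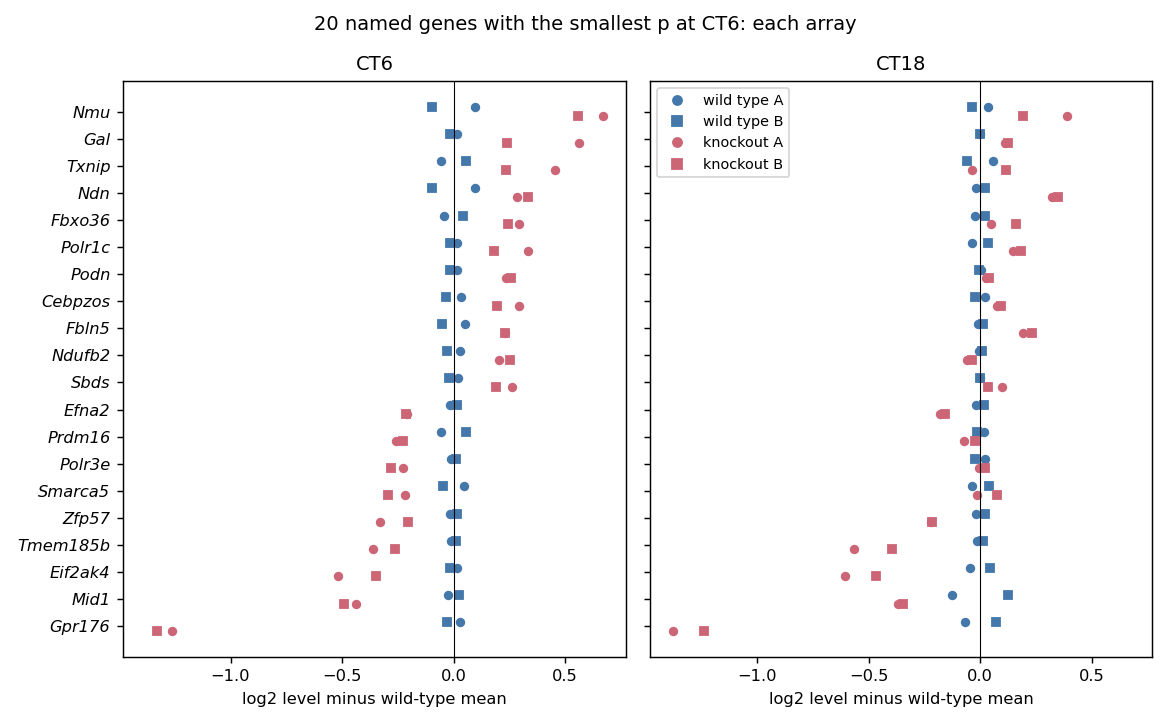
Log2 level of each array minus the mean of the 2 wild-type arrays of the same time (x axis) for the 20 genes with the smallest p at CT6 after small RNA genes and provisional symbols were left out, at CT6 on the left and CT18 on the right; blue is wild type, red the knockout, circles are arrays A and squares arrays B. All 20 genes have the red and blue points apart at CT6, where they were chosen; at CT18 Gpr176, Eif2ak4, Tmem185b and Ndn keep a clear gap, and Polr3e and Smarca5 do not.

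The peptides of the SCN held several of the higher values and no call. Of 21 tested genes of the neuropeptide list, which also holds secretory proteins and 1 receptor, Calcrl (-0.11), 15 were above 0 and 6 below, with a median of 0.0542 against -0.00604 over all genes; none was called. At an unadjusted p under 0.05, 6 were higher and none lower, where 2.38% of all genes were higher. Besides Nmu these were Gal, Oxt, Nms, Sst and Cartpt. This list, like the others, was chosen with earlier results of these data known, so the shares describe it and test nothing. Gal, which encodes galanin, stood at 7.93 and 7.90 in wild type and 8.48 and 8.15 in the knockout, a difference of 0.40 ± 0.0892 (unadjusted p = 0.00129, limma adjusted p = 0.975). Oxt, the precursor of oxytocin, was at 11.39 and 11.65 against 11.96 and 11.84, a difference of 0.38 ± 0.0959. In both the groups did not overlap, but the arrays of 1 genotype, the knockout for Gal and wild type for Oxt, spread wider than the gap between the groups.

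Nms, which encodes neuromedin S, a peptide made largely in the SCN and able to shift its clock, stood at 11.07 and 10.93 in wild type and 11.20 and 11.26 in the knockout, a difference of 0.23 that was 0.35 at CT18 (unadjusted p = 0.000284). Sst, somatostatin, was at 11.96 and 11.90 against 12.18 and 12.17, a difference of 0.25 that was -0.03 at CT18. Cartpt, the CART peptide precursor, differed by 0.15 at CT6 and 0.13 at CT18. For the peptides most used to divide the nucleus the CT6 intervals held 0. Avp, vasopressin, of the shell region, was at 11.63 and 11.67 in wild type and 11.74 and 11.83 in the knockout, a difference of 0.13 with an interval of -0.00 to 0.27, and of 0.20 at CT18 (unadjusted p = 0.00861). Vip, vasoactive intestinal peptide, of the core, was at 11.64 and 11.56 against 11.58 and 11.61, a difference of -0.00 with an interval of -0.13 to 0.12. Grp, the core peptide gastrin-releasing peptide, differed by -0.11 (-0.23 to 0.01), and by -0.15 at CT18 (unadjusted p = 0.0230). Prok2, the output peptide prokineticin 2, was at 9.59 and 9.42 against 9.52 and 9.77, a difference of 0.14 (-0.09 to 0.36) with overlapping groups. At CT18 the list's median was 0.134, with 8 genes higher and 2 lower at an unadjusted p under 0.05, where 5.28% and 7.24% of all genes were.

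**Figure D4:**
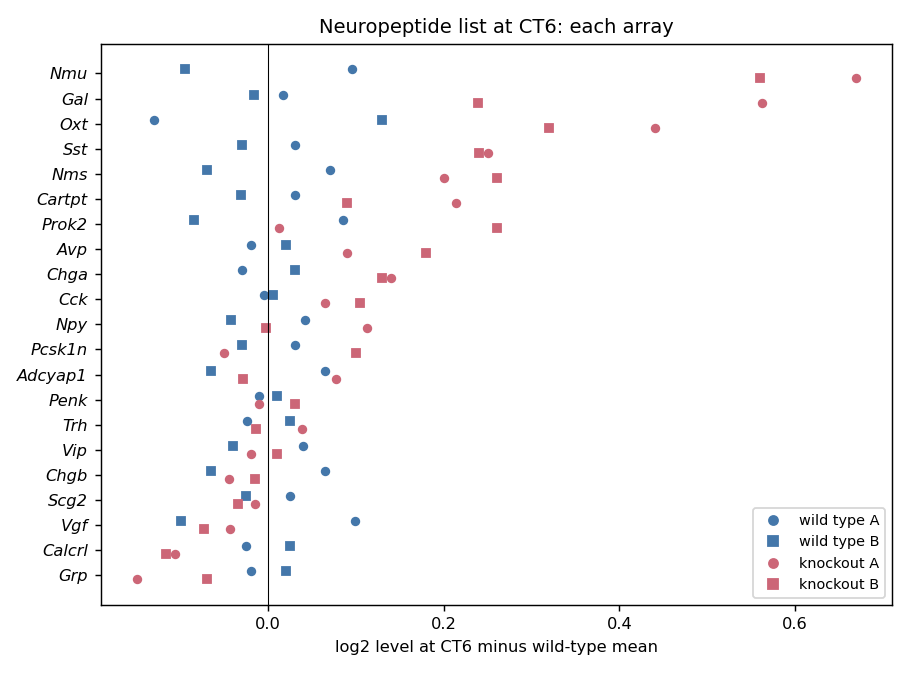
Log2 level at CT6 minus the wild-type mean (x axis) for the 21 tested genes of the neuropeptide list, ordered by difference; blue is wild type, red the knockout, circles arrays A and squares arrays B. Nmu, Gal, Oxt, Sst, Nms and Cartpt at the top have red points to the right of blue ones, and Vip, Trh and Penk have them mixed.

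Markers of other cell groups were read beside these peptides. Of 13 tested markers of neurons in the neighbouring hypothalamus, 10 were above 0, where 46.7% of all genes were, and 3 had an unadjusted p under 0.05, all higher, where 2.38% of all genes were: Oxt, which both lists hold, Th, the first enzyme of dopamine synthesis, at 0.28, and Sim1, a transcription factor of the paraventricular and supraoptic nuclei, at 0.15. The summed log2 level of these 13 genes was 106 in each wild-type array and 107 in each knockout array, and their median was 0.0397 (0.0128 without wild type B and 0.0744 without wild type A). Of the 19 listed markers with a probe set of their own, 6 were under the level filter. Among these were Crh, Pomc, Hcrt and Pmch, between 4.97 and 6.79 in all 4 arrays. Others lay well above it, such as Trh at 9.29 to 9.35 and Npy at 8.61 to 8.76. The part of neighbouring neurons in the peptide values was not tested. In pooled tissue a change in the number of cells of a type cannot be told apart from a change in RNA per cell.

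Arrays A and B of the knockout at CT6 were the least alike of the 4 groups. Their correlation was 0.9958, which does not tell which of them is off. The deposited median of array A, 7.39, was the highest of the 8 arrays, next to 7.38 in knockout CT18 B. The median level of 1027 olfactory receptor genes, which the SCN is not known to use, was highest in array A, at 6.22. It was lowest in array B, at 5.99. Leptomeningeal markers, genes of the membranes over the brain, had a mean log2 level of 8.46 in knockout A and 7.92 in knockout B. In wild type at CT6 it was 7.77 and 8.25, so that the groups overlapped, and wild type CT18 A was at 8.45. The summed levels of these 15 markers ranged from 116 to 124 in wild type and from 119 to 127 in the knockout. Of them 13 were above 0 and none had an unadjusted p under 0.05. Their median of 0.149 became -0.0919 without knockout A and 0.549 without knockout B. The median of the neuropeptide genes was 0.0893 without knockout A or without wild type A, and 0.0362 without wild type B. Without knockout A, Gal was 0.24 higher, Nmu 0.56, Oxt 0.32 and Nms 0.26.

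The clock genes were read for a change in the daytime level of the clock's own transcripts, which 2 arrays per group can bound but not exclude. None of 15 day-phase clock genes was called. Their median was -0.0607, 14 of the 15 were below 0, and 1 had an unadjusted p under 0.05, where 1.86% of all genes were lower at that level. This was Per3, at 9.37 and 9.45 in wild type and 9.28 and 9.29 in the knockout, a difference of -0.13 (unadjusted p = 0.0411, limma adjusted p = 0.975). Per1, a repressor of the clock that CREB also drives, was at 9.94 and 9.93 in wild type and 9.83 and 9.89 in the knockout, a difference of -0.07 with a 95% interval of -0.23 to 0.09. Per2 was at 9.91 and 9.83 against 9.64 and 9.84, so that its groups overlapped, with a difference of -0.13 (-0.33 to 0.08). Nr1d1, the repressor REV-ERB alpha, differed by -0.04 (-0.20 to 0.11) and Dbp, an output transcription factor of the clock, by -0.06 (-0.25 to 0.13).

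The intervals put bounds on these differences, since for all 15 day-phase genes they lay within 1.5-fold. Without knockout B the median of the list was -0.106. Without knockout A it was -0.0252, with Per2 at -0.03, Nr1d1 at 0.02 and Dbp at 0.03. In the CT18 pools 10 of the 15 were above 0, where 43.3% of all genes were, with a median of 0.0192. Of 10 clock activators and night-phase genes none was called or had an unadjusted p under 0.05, and their median of -0.0279 became 0.0319 without knockout A and -0.0538 without knockout B. Arntl, which encodes the activator BMAL1, was at 8.60 and 8.56 against 8.51 and 8.55, a difference of -0.05 (-0.16 to 0.07).

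The receptor's own signalling partners were examined next. Gnaz, the alpha subunit of Gz, was at 9.17 and 9.08 in wild type and 9.17 and 9.11 in the knockout, a difference of 0.02 with an interval of -0.14 to 0.18. Rgs16, which switches off Gi and related proteins and shapes daytime cyclic AMP in the SCN, was at 12.30 and 12.34 against 12.29 and 12.32, a difference of -0.02 (-0.13 to 0.10). Of 21 tested Gz and Gi/o partners none was called, the median was -0.0195 (-0.00025 without knockout A and -0.0322 without knockout B), and all 21 intervals lay within 1.5-fold. Gpsm1, which holds free Gi alpha subunits, was the 1 with an unadjusted p under 0.05, at 7.35 and 7.37 against 7.22 and 7.24 (-0.13; unadjusted p = 0.0263, limma adjusted p = 0.975). Gnao1, the Go alpha subunit, differed by -0.09.

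Enzymes of cyclic AMP were as close to 0. None of 24 adenylyl cyclases and phosphodiesterases was called or had an unadjusted p under 0.05, and their median of -0.0246 became 0.0184 without knockout A and -0.0502 without knockout B. Adcy5, a cyclase that Gi proteins inhibit, differed by -0.09 and Pde8b, a phosphodiesterase of high affinity for cyclic AMP, by 0.06. Of 16 protein kinase A, anchor and Epac genes and 11 CREB, CRTC and SIK genes none had an unadjusted p under 0.05, with medians of -0.012 and -0.0199. Without wild type B the first of these was 0.0107, without wild type A the second was 0.000934, and without knockout B they were -0.0339 and -0.044. Akap5, an anchor of the kinase at the synapse, differed by -0.11 and Crem, a CREB relative, by -0.08. All intervals of these 3 lists lay within 1.5-fold.

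Genes that neuronal activity and CREB induce were split in sign. Of 20 tested CRE-driven and immediate early genes 10 were above 0 and 10 below, with a median of 0.000174. That median was 0.0326 without knockout A, -0.0704 without knockout B and -0.0529 without wild type B. Arc, an early gene of synaptic plasticity, was at 7.53 and 7.61 in wild type and 7.42 and 7.38 in the knockout, a difference of -0.17 (unadjusted p = 0.0105, limma adjusted p = 0.975), against 0.17 at CT18. Npas4 differed by 0.11 and Nr4a1, an orphan nuclear receptor, by 0.14 at CT6, against -0.15 and -0.11 at CT18. At CT6 Npas4 was at 6.59 and 6.60 in wild type and 6.67 and 6.76 in the knockout. These values lie under the log2 6.82 of the level filter, which only its mean over the 8 arrays passed. The CT6 and CT18 signs were opposite in Arc, Npas4 and Nr4a1, with no call for the difference.

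Among genes of firing and synaptic input more values were below 0 than above. Of 35 ion channels 29 were below 0, with a median of -0.0453 (-0.0248 without knockout A and -0.0773 without knockout B), where 46.7% of all genes were above 0. Kcnd2, a channel of the A-type potassium current, stood at 10.30 and 10.22 in wild type and 10.06 and 10.07 in the knockout, a difference of -0.20 (unadjusted p = 0.00464, limma adjusted p = 0.975), and at -0.10 at CT18. Of 31 GABA and glutamate receptor genes 22 were below 0, with a median of -0.0465 (-0.021 without knockout A and -0.07 without knockout B). Grik1, a kainate receptor subunit, differed by -0.15, Gria2, an AMPA receptor subunit, by -0.13, and Gabrq, a GABA-A receptor subunit, by 0.14. None of these was called.

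Receptors and identity factors of the nucleus gave similar values. Of 18 tested receptors for SCN peptides and transmitters 15 were below 0 (median -0.0349, 0.00381 without knockout A and -0.105 without knockout B). Htr1b, a serotonin receptor, was at 8.01 and 7.94 against 7.83 and 7.85, a difference of -0.14, and of -0.19 at CT18. Of 15 tested identity transcription factors 13 were below 0 (median -0.0612, -0.0134 without knockout A and -0.115 without knockout B). Sox2 was at 10.32 and 10.04 against 9.93 and 9.97, a difference of -0.23 (unadjusted p = 0.0217, limma adjusted p = 0.975), and Lhx1, needed for coupling among SCN neurons, was at 9.65 and 9.61 against 9.45 and 9.57, a difference of -0.12. Among 27 other orphan class A receptors none was called (median -0.0303, 0.00365 without wild type B), and Gpr17 at -0.24 and Gpr173 at -0.19 had the smallest p.

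Metabolic and stress lists held no call either. Of 41 respiratory chain genes 28 were above 0 with a median of 0.0321 (36 and 0.0654 at CT18); Sdhd, of complex II, differed by 0.15 and Ndufs4, of complex I, by 0.13. Centring each array on its median in place of quantile normalisation moved this median to 0.00715. Of 20 heat shock and temperature-responsive genes 13 were below 0 and 7 above, with a median of -0.0183 (0.00359 without knockout A). Chordc1, a partner of HSP90, was at -0.22 (unadjusted p = 0.0274, limma adjusted p = 0.975) and -0.26 at CT18. Hspb1 of the same list went the other way, at 0.18, with 0.16 at its other probe set. Ddit3, the stress factor CHOP, which acts downstream of eIF2 kinases such as the product of Eif2ak4, was at 7.91 and 7.90 against 7.77 and 7.72, a difference of -0.16, while Atf4, from the same branch, differed by 0.10. Of 18 sterol and fatty acid synthesis genes 14 were below 0, with Cyp51 at -0.16. Medians were -0.0245 for 30 genes of the MAP kinase pathway, -0.0353 for 24 synaptic vesicle genes, 0.00386 for 17 other G protein subunits, -0.0058 for 26 folding genes of the endoplasmic reticulum and 0.00933 for 13 glucocorticoid-responsive genes. Each of these 5 medians changed sign with some CT6 array left out, over -0.0581 to 0.0245 for the MAP kinase, -0.051 to 0.00402 for the synaptic, -0.0157 to 0.00386 for the G protein, -0.0412 to 0.00924 for the folding and -0.0186 to 0.0156 for the glucocorticoid list.

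Glial and vascular markers bear on the make-up of the dissected tissue. Of 13 oligodendrocyte markers 11 were below 0 (median -0.0913, but 0.00696 without knockout B and -0.155 without wild type A), with Mbp, the myelin basic protein, at -0.10, and of 7 precursor markers 6 were below 0, with Olig2 at -0.21 (unadjusted p = 0.0374). Of 14 astrocyte markers 10 were below 0 (median -0.0259, -0.0124 without knockout B), and of 10 tested microglia markers 6 were above 0 (median 0.0236, 0.00987 without knockout A and 0.0817 without knockout B). Of 13 endothelial and mural markers 8 were below 0 (median -0.0205, but 0.0591 without wild type B and -0.113 without wild type A). Ependymal and tanycyte genes, which line the ventricle beside the SCN, had 8 of 11 above 0 (median 0.0966, 0.0159 without wild type A and 0.158 without wild type B), with Rarres2 at 0.19 (unadjusted p = 0.0136) and Sntn at 0.13. Crym of the same list went the other way, at 7.01 and 7.03 in wild type and 6.91 and 6.84 in the knockout. Choroid plexus and blood cell genes were mostly under the level filter, 7 of 9 and 5 of 6 with a probe set of their own. Of 13 tested pan-neuronal genes 6 were above 0 and 7 below, with a median of -0.0108 (0.0247 without wild type A and -0.0278 without knockout B). None of the 11 marker lists held a called gene.

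**Figure D5:**
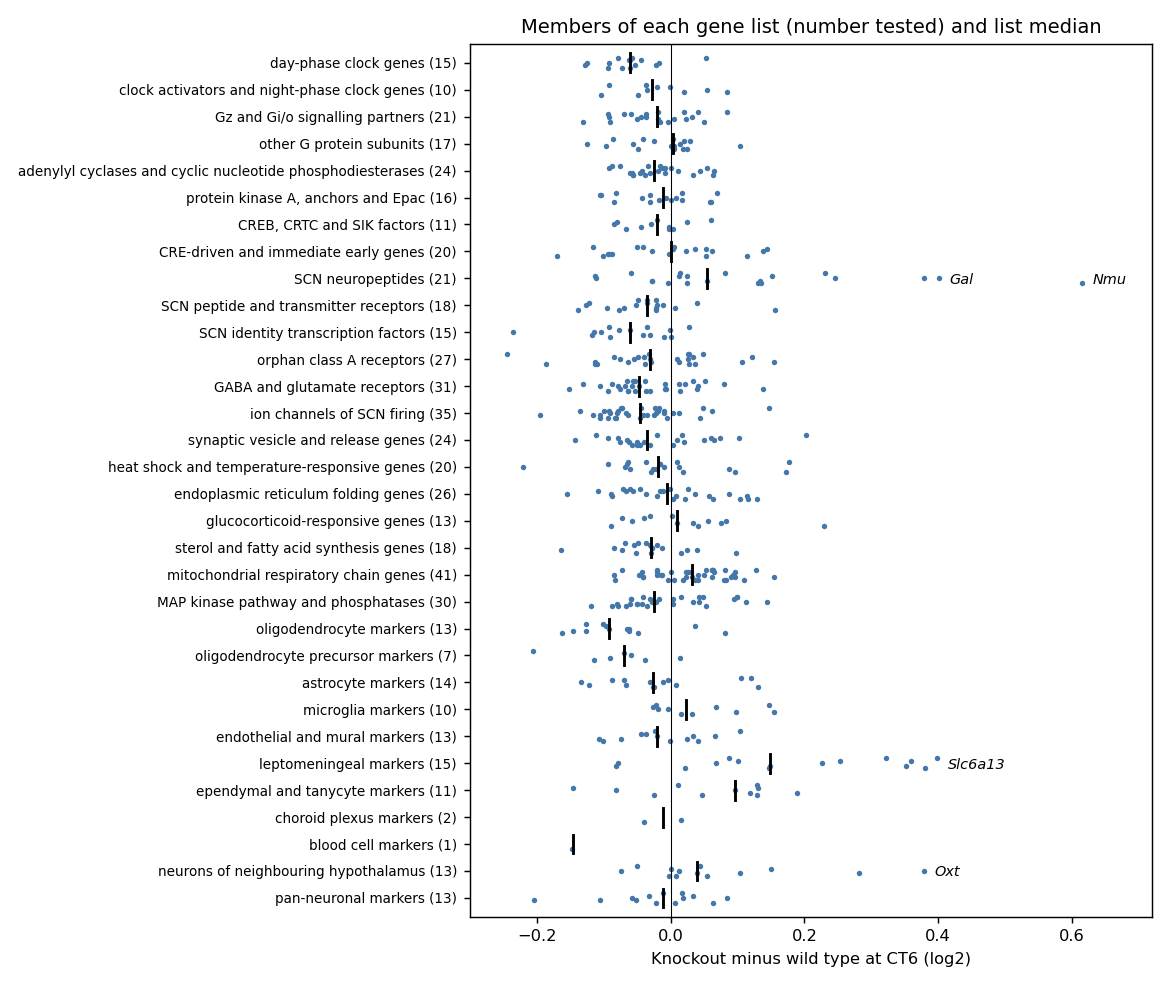
Difference between knockout and wild type at CT6 (log2, x axis) for every tested member of the 32 gene lists, 1 point per gene, with the list median as a black bar and the number tested in brackets. List medians other than those of the leptomeningeal list (0.149) and the single blood cell gene (-0.146) lie between -0.0913 and 0.0966, and Nmu and Gal are the points farthest to the right.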

How the data were processed

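RNA from the SCN was hybridised to whole-transcript arrays. The authors deposited log2 values for 28853 probe sets on 8 arrays; the steps behind them (background correction, summary, normalisation) were not given in the sources used. Lower quartiles differed by up to 0.139 between arrays, so the values were quantile normalised with limma 3.58.1 in R 4.3.3, which would hide a shift shared by most genes. Of 28853 probe sets, 21789 had exactly 1 gene symbol in the platform annotation, 1621 had several and 5443 were unnamed; those with several were left out. The brightest probe set of each of 19938 genes was kept (999 genes had more than 1), and 7486 genes with a mean under the 40th percentile (log2 6.82) were left out. A group-means model was fitted to all 8 arrays, which share 4 residual degrees of freedom, and p-values were Benjamini-Hochberg adjusted over 12452 genes. Errors after ± are standard errors of this fit and intervals are 95%; the median standard error was 0.0636. The number of arrays limits the precision. The fit was also run on simulated data with independent noise. Such data lack shifts shared by many genes of an array, so that the run cannot show their effect.

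Named are 11 genes of the receptor's pathway and the clock (Gpr176, Rgs16, Gnaz, Prok2, Vip, Avp, Dbp, Nr1d1, Arntl, Per2, Per1), the 20 genes with the smallest p among those that could be named, and up to 4 members by p of each of 32 lists; provisional symbols and Mir, Snor, Olfr and Vmn genes were otherwise not named. Some list members and neighbours outside this rule (Sst, Cartpt, Grp, Pde8b, Thbs1, Fsip1, Srp14 and Atf4) were named after their values were seen. Members and lists were chosen with earlier results of these data known. Gene order and promoters came from RefSeq (GRCm38.p6). Alternatives were the deposited and the median-centred values, other level filters, CT6 arrays alone, a replicate block, trended and robust moderation, array weights, averaged probe sets and leaving out each array.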

Additional observations from a re-analysis of the deposited data

How the results depend on the processing

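Gpr176 was called at CT6 under every setting and with each array left out, with a difference between -1.33 and -1.26 and limma adjusted p between 7.14e-07 and 0.00544. The count of 1 called gene at CT6 became 2, by adding Nmu, in the values as deposited (difference 0.635), in median-centred values (0.612) and with a replicate block (0.615, adjusted p = 0.0172), which also took the calls within the gene lists from 0 to 1. It stayed at 1 with each array left out. The letters A and B did not pair the arrays: the A minus B differences of the genotypes at CT6 correlated at r = -0.0521 over genes, so the block shares only a letter. At CT18 the count of 1 became 3, all lower, in median-centred values, with the 60th percentile filter and with trended robust moderation. Averaged over both times the count of 3 became 6 in deposited values, 5 in median-centred values, 1 with no filter, 6 with the 60th percentile filter and 9 with trended robust moderation, and lay between 1 and 4 with single arrays left out. The difference between the times, and the neighbours of Gpr176 at CT6, had 0 calls under every setting run. The 60th percentile filter left out some named genes and lists, which then have no value. The contrasts over both times could not be fitted with CT6 arrays alone. Of 148 named genes, 13 changed sign with a CT6 array left out and 0 under other settings; none was called. Their leave-one-out ranges were -0.0239 to 0.0646 for Gnaz, -0.0338 to 0.00139 for Rgs16, -0.106 to 0.0165 for Nr1d1, -0.149 to 0.0275 for Dbp, -0.0408 to 0.0327 for Vip, -0.209 to 0.0211 for Sv2b, -0.0129 to 0.179 for Pdk4, -0.0168 to 0.243 for Map2k6, -0.00243 to 0.137 for Csf1r, -0.154 to 0.00541 for Pdgfrb, -0.173 to 0.0947 for Clic6, -0.427 to 0.0202 for Tubb3 and -0.237 to 0.0249 for Rbfox3.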
